A study of Saccharomyces cerevisiae with 8 samples.

Results

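The autophagy-related (ATG) genes of budding yeast were followed across cultures given carnitine, hydrogen peroxide or both. Members were the probe sets assigned to a single Saccharomyces cerevisiae gene whose symbol is ATG and a number. There were 34 such genes, each with 1 probe set, among 5449 S. cerevisiae genes on the array and 10928 probe sets in all. All 34 lay above the floor for dim genes and were among the 5324 genes tested. Genes of the pathway that carry another symbol in the reference table, such as VPS30 (also ATG6) and SNX4 (also ATG24), are described apart, and ATG42, ATG44 and ATG45 were not analysed here.

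In autophagy a membrane sac grows around a piece of cytoplasm, closes to form an autophagosome and fuses with the vacuole, where its content is broken down and reused. In yeast the process is switched on chiefly by starvation, when the TORC1 kinase no longer holds back the Atg1 kinase complex. In growing cells part of the same machinery carries vacuolar enzymes to their destination, the cytoplasm-to-vacuole targeting route, and receptor proteins can select mitochondria, peroxisomes or endoplasmic reticulum as cargo. Transcript levels of ATG genes say how much messenger RNA was present, not how much autophagy took place.

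All cultures were of BY4742, a haploid S288C-type strain recorded as MATa his3 leu2 lys2 ura3, taken at mid-log growth on synthetic complete dextrose. The 4 groups were untreated control, L-carnitine, hydrogen peroxide (0.4 mM for 30 min), and L-carnitine followed by the same peroxide exposure. Each group had 2 biological replicates, each culture on its own Affymetrix array of biotin-labelled total RNA. The carnitine dose is given as 100 mg/L in the series design and as 1000 mg/L in the treatment protocol. Carnitine is a small quaternary amine that carries activated acyl groups between compartments, and peroxide is an oxidant that yeast meets with a broad stress response.

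Values are the deposited linear signals, and changes are log2 differences between group means with the standard error of a linear model over all 8 arrays. Genes are said to rise or fall at a limma adjusted p below 0.05, and the number of arrays limits the precision. Array medians of the tested genes ran from 3044 to 3198. Between replicate arrays the absolute log2 difference had a median of 0.0865 to 0.0984 over all tested genes and of 0.112 to 0.161 over the ATG genes. The array also carries 17 probe sets for ATG genes of fission yeast, a species not in these cultures, and they read 3.65 to 3.99 on every array. The dimmest budding yeast member, ATG16, read 16.2 to 35.1. The α-cell genes MF(ALPHA)1 and STE3 read at least 16046 on all arrays while the a-cell gene STE2 read at most 241, which goes against the MATa in the label. Of the 4 marker genes in the recorded genotype, LEU2, LYS2 and URA3 stayed below the floor of 4.14, while HIS3 read 10505 to 17056. The position of the HIS3 probes relative to the his3 lesion was not examined.

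Peroxide without carnitine raised most of the autophagy genes. Of the 34 members 27 rose, 1 fell and 6 did not pass the test, whereas over all tested genes 35.3% rose and 39.5% fell. The median change of the members was 0.88, against -0.02 for all tested genes. With carnitine present in both groups, peroxide raised 29 members, lowered 1, and 4 did not pass, where 35.8% of all tested genes rose and 39.1% fell. Here the members' median was 1.196, against -0.02 for all tested genes. In RNA from whole cultures, a change in every cell and a change in a share of the cells cannot be told apart.

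These changes are relative to the array's overall signal. Scaling to the poly-A spikes, bacterial transcripts added to the RNA, put the median of all genes at -0.61 for peroxide without carnitine and 0.02 with it. Under that scaling 16 members were called higher and 4 lower without carnitine, the 4 being ATG10, ATG17, ATG23 and ATG27. Scaling to the hybridisation spikes put the same medians at 0.45 and 0.345, with 32 members called higher and 0 lower in each comparison. The share of all tested genes called under either spike scaling is not given here, so these counts have no background beside them. Such a scaling shifts every gene of an array alike, so it leaves the distance between the members' median and that of all genes, 0.91 without carnitine and 1.22 with it, as it was.

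**Figure D1:**
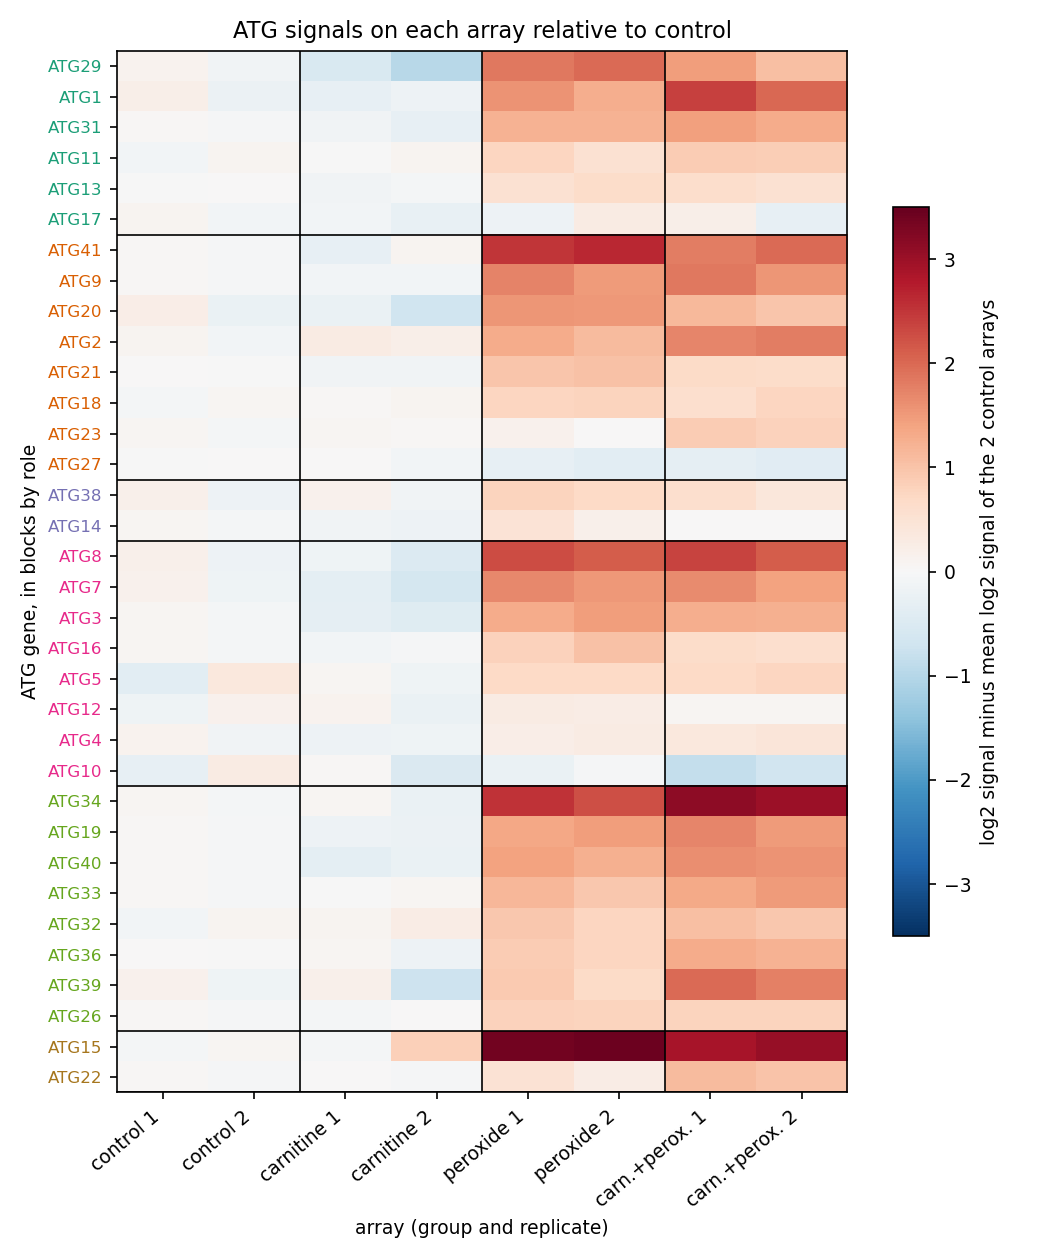
Log2 signal of each of the 34 ATG genes on each of the 8 arrays, as a colour scale relative to the mean of the 2 control arrays. Rows are in blocks by role, from the Atg1 kinase complex at the top to the vacuole at the bottom, and the 4 peroxide arrays on the right are red for most rows, with ATG15, ATG34 and ATG41 among the deepest and ATG27 and ATG10 pale or blue.

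The Atg1 kinase complex starts autophagosome formation. ATG1 (YGL180W), which encodes the kinase, read 585 and 438 in control, 415 and 449 with carnitine, 1502 and 1223 with peroxide, and 2674 and 2056 with both. All 4 peroxide arrays lay above all 4 arrays without peroxide, and those with both agents lay highest. ATG1 rose by 1.42 ± 0.19 with peroxide alone (adjusted p = 0.000269) and by 2.44 ± 0.19 in carnitine-fed cells (adjusted p = 1.33e-05). ATG29 (YPL166W), for a subunit of the scaffold built around Atg17, read 248 and 213 in control, 158 and 118 with carnitine, 827 and 909.6 with peroxide, and 632 and 474 with both. Its peroxide groups did not overlap the others either, but here the arrays with both agents lay below those with peroxide alone. The change was 1.92 ± 0.19 without carnitine (adjusted p = 6.05e-05) and 2.01 ± 0.19 with it (adjusted p = 4.32e-05). ATG31 (YDR022C), for the subunit that joins Atg29 to Atg17, read 806 and 773 in control, 722 and 647 with carnitine, 1843 and 1835 with peroxide, and 2134 and 1926 with both, and it rose by 1.22 ± 0.10 and 1.57 ± 0.10.

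The remaining genes of this complex are given by their means and changes. ATG13, for the regulatory subunit that TORC1 phosphorylates, had group means of 840.3 ± 0.599, 790.2 ± 25.5, 1264 ± 70.9 and 1243 ± 49.3 (SD, n = 2) in the order control, carnitine, peroxide and both. It rose by 0.59 ± 0.094 without carnitine, where poly-A scaling gave -0.000652, and by 0.65 ± 0.094 with it. ATG11, for the scaffold of selective autophagy, rose by 0.64 ± 0.11 from a control mean of 1190.0 ± 97.2 (SD, n = 2). It rose by 0.83 ± 0.11 from a carnitine mean of 1229.6 ± 65.5 (SD, n = 2). ATG17, for the scaffold itself, passed neither test, with changes of 0.06 ± 0.21 and 0.14 ± 0.21 and array signals between 163 and 243 over the 8 arrays. Its 95% interval without carnitine was -0.44 to 0.56. Thus 5 of the 6 genes rose in each peroxide comparison, where 35.3% and 35.8% of all tested genes did. Under poly-A scaling 3 of the 6 were called higher with peroxide alone, and ATG11 (0.05, adjusted p = 0.753) and ATG13 were not. For this count too no share of all tested genes under that scaling is given.

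Vesicles carrying Atg9, lipid transfer by Atg2 and binding of phosphatidylinositol 3-phosphate supply the growing membrane. ATG41 (YPL250C), whose product binds Atg9, read 3107 and 2973 in control, 2488 and 3246 with carnitine, 17338 and 18792 with peroxide, and 10426 and 12080.0 with both. The peroxide groups stood far above the rest, and the group with both agents stood below peroxide alone. It rose by 2.57 ± 0.13 (5.94-fold, adjusted p = 2.16e-06) and by 1.98 ± 0.13 in carnitine-fed cells (adjusted p = 5.71e-06). ATG9 (YDL149W), for the membrane protein of those vesicles, read 486 and 458 in control, 445 and 444 with carnitine, 1560.0 and 1315 with peroxide, and 1696 and 1374 with both. Both pairs of peroxide arrays overlapped each other and lay above all others. It rose by 1.601 ± 0.14 and 1.78 ± 0.14. ATG2 (YNL242W), for the lipid transfer protein, read 328 and 286 in control, 374 and 353 with carnitine, 759.7 and 655 with peroxide, and 1007 and 1063 with both. Its groups followed one another without overlap from control through carnitine and peroxide to both agents, with peroxide changes of 1.203 ± 0.12 and 1.51 ± 0.12.

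ATG20 (YDL113C), for a sorting nexin that shapes membranes in selective autophagy, read 802 and 591 in control, 582 and 425 with carnitine, 2014 and 1987 with peroxide, and 1515 and 1343 with both, and rose by 1.54 ± 0.19 and 1.52 ± 0.19. ATG21 (YPL100W), for a phosphoinositide-binding protein that helps place the lipidation machinery, read 2377 and 2307 in control, 2155 and 2158 with carnitine, 4604 and 4756 with peroxide, and 3723 and 3674 with both. Replicates lay close together in each group, and the rises of 0.999 ± 0.064 and 0.78 ± 0.064 had small errors. ATG18, for the phosphoinositide-binding partner of Atg2, rose by 0.76 ± 0.10 and 0.600 ± 0.10. ATG27 (YJL178C), for a membrane protein that assists Atg9 traffic, had group means of 14920.5 ± 1.78, 14411 ± 753, 11938 ± 436 and 11637 ± 523 (SD, n = 2) in the order control, carnitine, peroxide and both. It fell by 0.32 ± 0.058 without carnitine (adjusted p = 0.00139) and by 0.31 ± 0.058 with it (adjusted p = 0.0017), the single member called lower in either comparison, although hybridisation-spike scaling gave 0.15 and 0.06, neither called. ATG23 (YLR431C), for another Atg9 traffic factor, read 409 and 367 in control, 405 and 397 with carnitine, 432 and 389 with peroxide, and 711 and 682 with both. Control, carnitine and peroxide arrays overlapped, and those with both agents stood clear of them. Its change was 0.08 ± 0.11 with peroxide alone (adjusted p = 0.535) and 0.797 ± 0.11 in carnitine-fed cells (adjusted p = 0.00036).

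The phosphatidylinositol 3-kinase complex of autophagy had 2 members here. ATG38, for a subunit that helps hold the complex together, had group means of 834 ± 142, 844 ± 109.7, 1380.2 ± 68.0 and 1169 ± 103 (SD, n = 2) and rose by 0.74 ± 0.15 (adjusted p = 0.00277) and by 0.47 ± 0.15 with carnitine (adjusted p = 0.0222). The second of these calls ended without carnitine replicate 2, at 0.34 with adjusted p = 0.133, or without replicate 1 of the group with both agents, at 0.38 with adjusted p = 0.119. ATG14, for the subunit that directs the complex to autophagy, had group means of 132 ± 9.59, 119 ± 3.10, 167 ± 24.7 and 132 ± 0.0294 (SD, n = 2) and changes of 0.33 ± 0.13 (adjusted p = 0.0533) and 0.15 ± 0.13 (adjusted p = 0.328), neither called.

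In the ubiquitin-like conjugation systems, Atg8 is coupled to a membrane lipid and Atg12 to Atg5. ATG8 (YBL078C), for the protein that coats the growing membrane, read 3702 and 2911 in control, 2952 and 2374 with carnitine, 16064 and 14221 with peroxide, and 16814 and 14277 with both. The 4 peroxide arrays were all higher than any other array and overlapped between the groups without and with carnitine. ATG8 rose 4.60-fold without carnitine (2.203 ± 0.15 on the log2 scale) and 5.85-fold with it (2.55 ± 0.15). ATG7 (YHR171W), for the activating enzyme that serves both systems, read 651 and 533 in control, 468 and 388 with carnitine, 1907 and 1685 with peroxide, and 1858 and 1559.9 with both. It rose by 1.61 ± 0.16 and 1.999 ± 0.16, and its carnitine arrays lay below its control arrays. ATG3 (YNR007C), for the enzyme that transfers Atg8 to lipid, read 1047 and 955 in control, 801 and 741 with carnitine, 2460.2 and 2766 with peroxide, and 2424 and 2371 with both. Its rises were 1.38 ± 0.10 and 1.64 ± 0.10, and its carnitine arrays again lay below control.

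The other genes of these systems are given by their means and changes, with groups in the same order. ATG4, for the protease that trims and frees Atg8, had group means of 445 ± 54.4, 394 ± 4.50, 534 ± 11.7 and 586 ± 12.4 (SD, n = 2). Its change of 0.27 ± 0.12 with peroxide alone did not pass (adjusted p = 0.0688), while the change of 0.57 ± 0.12 in carnitine-fed cells did (adjusted p = 0.0026). The 2 changes differed by 0.304 ± 0.17, which was not called (adjusted p = 0.247). ATG5, for the acceptor of Atg12, rose by 0.69 ± 0.20 and 0.76 ± 0.20, but its control arrays read 3191 and 5249, the widest replicate gap of any member in that group (0.718 on the log2 scale). Without peroxide replicate 1 or 2 its first call ended (adjusted p = 0.0563 and 0.0543), and without carnitine replicate 2 the second did (0.65, adjusted p = 0.0608). Leaving out control replicate 1 or 2 moved the first change to 0.33 or 1.05, both called. ATG16, for the protein that joins Atg12-Atg5 units, rose by 0.92 ± 0.11 from a dim control mean of 17.3 ± 0.994 (SD, n = 2). It rose by 0.68 ± 0.11 from a dim carnitine mean of 16.6 ± 0.497 (SD, n = 2). With 50 added to each signal the changes were 0.30 and 0.20. Under quantile normalization ATG16 had 0.36 (adjusted p = 0.0784) and 0.11 (adjusted p = 0.557). ATG12, for the second ubiquitin-like protein, had 0.28 ± 0.15 and 0.13 ± 0.15, and ATG10, for the enzyme that transfers Atg12, had -0.14 ± 0.24 and -0.52 ± 0.24, none of them called. Of the 8 genes 5 rose without carnitine, of which poly-A scaling left 3, and 6 rose with it. Over all tested genes 35.3% and 35.8% rose on the deposited scale, and the share under poly-A scaling is not given here.

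All 8 genes for cargo receptors and organelle-selective factors rose in both peroxide comparisons on the deposited scale, where 35.3% and 35.8% of all tested genes rose. Under poly-A scaling 4 of the 8 were called with peroxide alone, a count with no share of all tested genes under that scaling beside it. Those not called were ATG26 (0.20, adjusted p = 0.172), ATG32 (0.26, adjusted p = 0.143), ATG36 (0.23, adjusted p = 0.239) and ATG39 (0.20, adjusted p = 0.444). ATG34 (YOL083W), for a receptor that carries the vacuolar mannosidase Ams1 in starved cells, read 508 and 455 in control, 506 and 408 with carnitine, 2764 and 2295 with peroxide, and 4205 and 3809 with both. No peroxide array overlapped one without peroxide, and both arrays with the 2 agents exceeded both with peroxide alone. ATG34 rose 5.24-fold (2.39 ± 0.14) without carnitine and 8.81-fold (3.14 ± 0.14) with it. ATG19 (YOL082W), for the related receptor of the cytoplasm-to-vacuole route, read 2786 and 2655 in control, 2413 and 2346 with carnitine, 6913 and 7506 with peroxide, and 8924 and 7636 with both. Its rises were 1.41 ± 0.088 and 1.79 ± 0.088, with adjusted p = 5.75e-06 and adjusted p = 1.71e-06.

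Receptors of the endoplasmic reticulum and nuclear envelope followed. ATG40 (YOR152C), for a receptor that selects endoplasmic reticulum, read 774 and 726 in control, 595 and 642 with carnitine, 2006 and 1769 with peroxide, and 2333 and 2230.2 with both, and rose by 1.33 ± 0.10 and 1.88 ± 0.10. ATG39 (YLR312C), for the receptor of the nuclear envelope, read 396 and 325 in control, 409 and 217 with carnitine, 676 and 571 with peroxide, and 1426 and 1215 with both. The arrays with both agents stood far above those with peroxide alone, while the 2 carnitine arrays differed more than any other replicate pair of a member (0.914 on the log2 scale). ATG39 rose by 0.79 ± 0.28 with peroxide alone (adjusted p = 0.0327) and by 2.14 ± 0.28 in carnitine-fed cells (adjusted p = 0.000222). The first call ended when any of the 4 control and peroxide arrays was left out, with values of 0.65 to 0.94. Without carnitine replicate 1 or 2 the second change was between 1.69 and 2.60 and remained called.

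Genes for removal of peroxisomes and mitochondria rose by amounts near the members' median in cells without carnitine. ATG36 (YJL185C), for the peroxisome receptor, read 309 and 298 in control, 316 and 269.8 with carnitine, 558 and 513 with peroxide, and 742 and 712 with both, with rises of 0.82 ± 0.12 and 1.31 ± 0.12. ATG33 (YLR356W), for a mitochondrial outer membrane protein needed for efficient mitophagy, read 1670.3 and 1569.9 in control, 1595 and 1700.3 with carnitine, 3593 and 3139.7 with peroxide, and 4041 and 4567 with both, with rises of 1.05 ± 0.10 and 1.38 ± 0.10. For both genes the 4 groups separated into unexposed cells, peroxide and both agents, in rising order. ATG32, for the mitophagy receptor, had group means of 592 ± 55.7, 668 ± 57.5, 1066 ± 89.3 and 1178 ± 54.5 (SD, n = 2) and rose by 0.85 ± 0.12 and 0.82 ± 0.12. ATG26 is for a sterol glucosyltransferase whose role in peroxisome removal is known from the yeast Komagataella. It rose by 0.79 ± 0.071 from a control mean of 2184 ± 70.3 (SD, n = 2) and by 0.81 ± 0.071 from a carnitine mean of 2139 ± 106 (SD, n = 2).

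Both genes that act inside the vacuole rose on the deposited scale in each peroxide comparison, where 35.3% and 35.8% of all tested genes rose. ATG15 (YCR068W), for the lipase that breaks up autophagic bodies, read 27.8 and 30.6 in control, 27.8 and 51.5 with carnitine, 301 and 317 with peroxide, and 216 and 242 with both. Dim without peroxide, it stood above 216 on every peroxide array. Its rise of 3.41 ± 0.26 (10.6-fold) was the highest of the 34 without carnitine, and that with carnitine was 2.598 ± 0.26. With 50 added to each signal these were 2.18 and 1.65, and ATG41 (2.55), ATG34 (2.27) and ATG8 (2.19) then stood above ATG15 without carnitine. ATG22 (YCL038C), for an exporter of amino acids from the vacuole, read 2148 and 2006 in control, 2107 and 2003 with carnitine, 2926 and 2493 with peroxide, and 4492 and 4185 with both. The peroxide arrays stood slightly above the unexposed ones and the arrays with both agents well above those. ATG22 rose by 0.38 ± 0.097 (adjusted p = 0.00817) and by 1.08 ± 0.097 in carnitine-fed cells (adjusted p = 2.97e-05), and the first call ended without peroxide replicate 1 (0.26, adjusted p = 0.0517), while poly-A scaling gave -0.21.

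The 2 peroxide responses were measured on separate arrays and can be set against each other. The change of all 34 members had the same sign in both, 27 rose in both, 1 fell in both, and 4 (ATG10, ATG12, ATG14 and ATG17) passed in neither. ATG4 and ATG23 were called with carnitine but not without it. How many of all tested genes agreed in sign or in call is not given here, so these counts have no background. Across the 34 genes, which share arrays and are not independent replicates, Pearson's r was 0.866 and Spearman's rho 0.884, against a Pearson's r of 0.931 over all tested genes. The response was smaller in size with carnitine for 11 members and larger for the other 23. The signed difference, with carnitine minus without, was positive for 23 and negative for 11, against 2721 and 2603 of all tested genes. This split depended on the scale: poly-A scaling gave 33 positive and 1 negative, and hybridisation-spike scaling 17 and 17. Called rises of at least 2-fold numbered 15 without carnitine and 18 with it, against 679 and 733 of the 5324 tested genes.

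**Figure D2:**
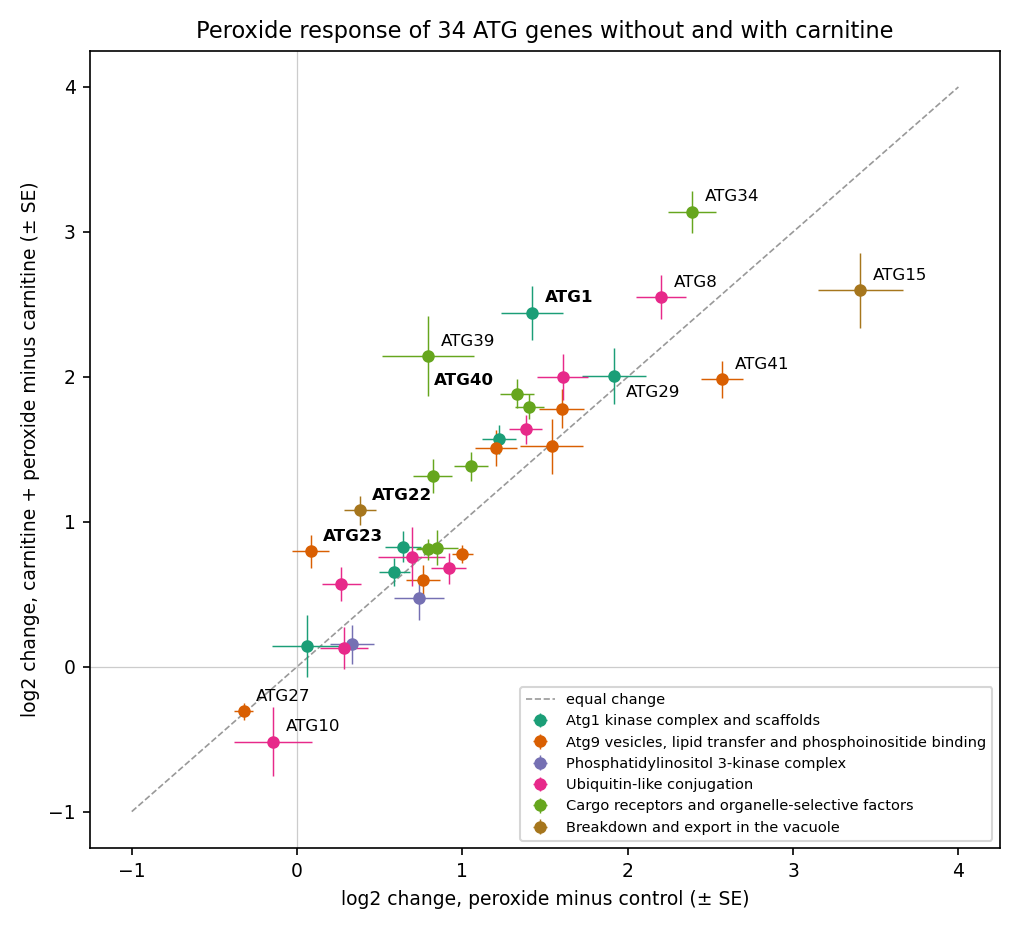
Log2 change with peroxide in cells without carnitine (x axis) and in carnitine-fed cells (y axis), with standard errors, for the 34 ATG genes coloured by role. Points above the dashed line of equal change had a more positive or less negative change with carnitine. The 4 names in bold (ATG1, ATG22, ATG23 and ATG40) are those whose 2 responses differed by the interaction test.

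Carnitine without peroxide, compared with control, asks whether carnitine alters these transcripts in unstressed cells. None of the 34 members was called by limma, and 5 had an unadjusted p below 0.05: ATG29, ATG3, ATG7, ATG40 and ATG20. Over all tested genes 0.47% rose and 1.03% fell. ATG29 had the lowest adjusted p, at a change of -0.75 ± 0.19 (adjusted p = 0.142, 95% interval -1.21 to -0.30), with carnitine arrays of 158 and 118 below control arrays of 248 and 213. ATG3 had -0.38 ± 0.10, ATG7 -0.47 ± 0.16, ATG20 -0.47 ± 0.19 and ATG40 -0.28 ± 0.10. All 5 read lower with carnitine, on arrays that did not overlap. In total 26 members had a negative change and 8 a positive one, with a median of -0.09 against -0.001 for all tested genes. This balance depended on the scale: poly-A scaling gave 19 negative and 15 positive (median -0.02), and hybridisation-spike scaling 13 negative and 21 positive (median 0.07), with 0 called under either. Carnitine arrays lay wholly below control arrays for 13 members and wholly above for 1, ATG2, where 22.5% and 23.4% of all tested genes did so. The 95% interval lay within a 2-fold change in either direction for 33 of the 34, ATG29 being the exception. The 8 conjugation genes all had negative changes on the deposited scale, from -0.47 to -0.04, and 5 of them did under either spike scaling. For ATG8 the change was -0.31 ± 0.15 (95% interval -0.66 to 0.04).

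Carnitine in peroxide-treated cells, compared with peroxide alone, asks whether carnitine alters transcripts under oxidative stress. Of the 34 members 8 rose, 3 fell and 23 did not pass, and over all tested genes 18.8% rose and 16.7% fell. The median change was 0.01, as for all tested genes, so the members spread to both sides. Scaling to the poly-A spikes put the median of all genes at 0.70 and that of the members at 0.70 as well. It called 27 members higher and 0 lower, and the share of all tested genes called under it is not given here. Hybridisation spikes put that median at 0.06, with 6 called higher and 2 lower.

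The 8 that rose came from several roles. ATG39, for the nuclear envelope receptor, rose by 1.08 ± 0.28 (adjusted p = 0.0224), from 676 and 571 to 1426 and 1215, the single called change of at least 2-fold. ATG1 rose by 0.79 ± 0.19 (adjusted p = 0.0169) and ATG23 by 0.77 ± 0.11 (adjusted p = 0.00368). ATG22 rose by 0.68 ± 0.097 (adjusted p = 0.00353), ATG34 by 0.67 ± 0.14 and ATG2 by 0.55 ± 0.12. Smaller rises were those of ATG36, by 0.44 ± 0.12, and ATG33, by 0.36 ± 0.10. For each of the 8, which were picked by this same comparison, both arrays with the 2 agents exceeded both arrays with peroxide alone. Arrays stood apart in that direction for 14 of the 34 members and for 1996 of the 5324 tested genes. Of the cargo receptor and organelle-selective genes 4 of 8 rose and 0 fell, and of the conjugation genes 0 of 8 passed. The shares over all tested genes were 18.8% and 16.7%.

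The 3 that fell were ATG41, ATG29 and ATG21. ATG41 fell by 0.69 ± 0.13 (adjusted p = 0.00741), from 17338 and 18792 with peroxide alone to 10426 and 12080.0 with both. ATG29 fell by 0.66 ± 0.19 (adjusted p = 0.0337) and ATG21 fell by 0.34 ± 0.064 (adjusted p = 0.00756). Under poly-A scaling the changes of ATG41, ATG29 and ATG21 were 0.01, 0.03 and 0.36. Among those that did not pass, ATG10 had -0.61 ± 0.24 (adjusted p = 0.0811), ATG20 -0.49 ± 0.19 (adjusted p = 0.0823) and ATG8 0.04 ± 0.15 (95% interval -0.32 to 0.39). Leaving out peroxide replicate 2 ended 9 of the 11, with values of 0.26 for ATG33 to 0.96 for ATG39 among the rises and of -0.60 for ATG29, -0.32 for ATG21 and -0.63 for ATG41. Leaving out replicate 1 or 2 of the group with both agents left 2 or 4 members called higher, and ATG22 and ATG23 passed with any array left out.

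**Figure D3:**
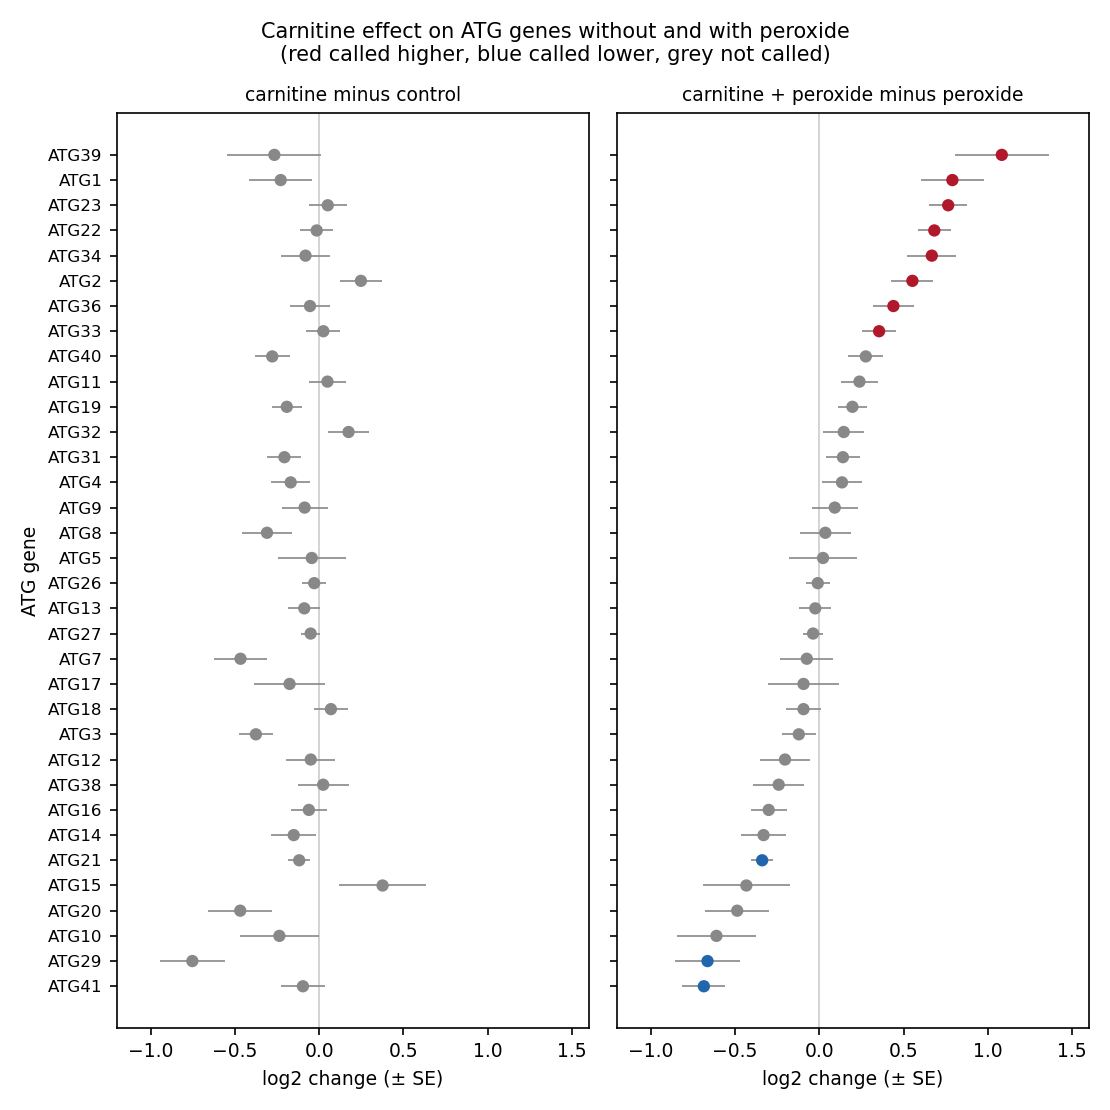
Log2 change with carnitine, ± SE, for the 34 ATG genes, without peroxide on the left and with peroxide on the right, ordered by the change under peroxide. All points on the left are grey (not called), and on the right 8 are red (higher) and 3 blue (lower), from 1.08 for ATG39 to -0.69 for ATG41.

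The interaction asks directly whether the peroxide response differed between cells with and without carnitine. It was called for 4 of the 34 members, all with a larger response in carnitine-fed cells, and for 0 in the other direction, where 7.72% of all tested genes were called higher and 5.11% lower. ATG1 had 1.02 ± 0.27 (adjusted p = 0.0475), ATG23 0.71 ± 0.16 (adjusted p = 0.0335), ATG22 0.698 ± 0.14 (adjusted p = 0.0269) and ATG40 0.56 ± 0.15 (adjusted p = 0.0477). For ATG40 the carnitine arrays lay below control (595 and 642 against 774 and 726) and the arrays with both agents above peroxide alone, so both sides added to the difference. For ATG22 and ATG23 the arrays without peroxide overlapped, and the difference came from the peroxide-treated cells. Just outside the threshold were ATG34 at 0.75 ± 0.20 (adjusted p = 0.0528), ATG39 at 1.35 ± 0.39 (adjusted p = 0.063) and, in the other direction, ATG41 at -0.59 ± 0.18 (adjusted p = 0.0718).

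These 4 calls lie close to the threshold. Each ended when any 1 of 7 arrays was left out, peroxide replicate 1 being the exception, with changes that stayed positive, from 0.81 to 1.23 for ATG1, 0.58 to 0.81 for ATG22, 0.64 to 0.79 for ATG23 and 0.46 to 0.65 for ATG40. Over all alternatives the adjusted p ran from 0.00023 to 0.149 for ATG1, 7.84e-05 to 0.0979 for ATG22, 0.000363 to 0.182 for ATG23 and 0.000367 to 0.289 for ATG40. Scaling to the poly-A spikes put the median of all genes at 0.64 and that of the members at 0.76, with 23 members called. Hybridisation spikes called 2, ATG1 and ATG39. The share of all tested genes called under these scalings is not given here.

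**Figure D4:**
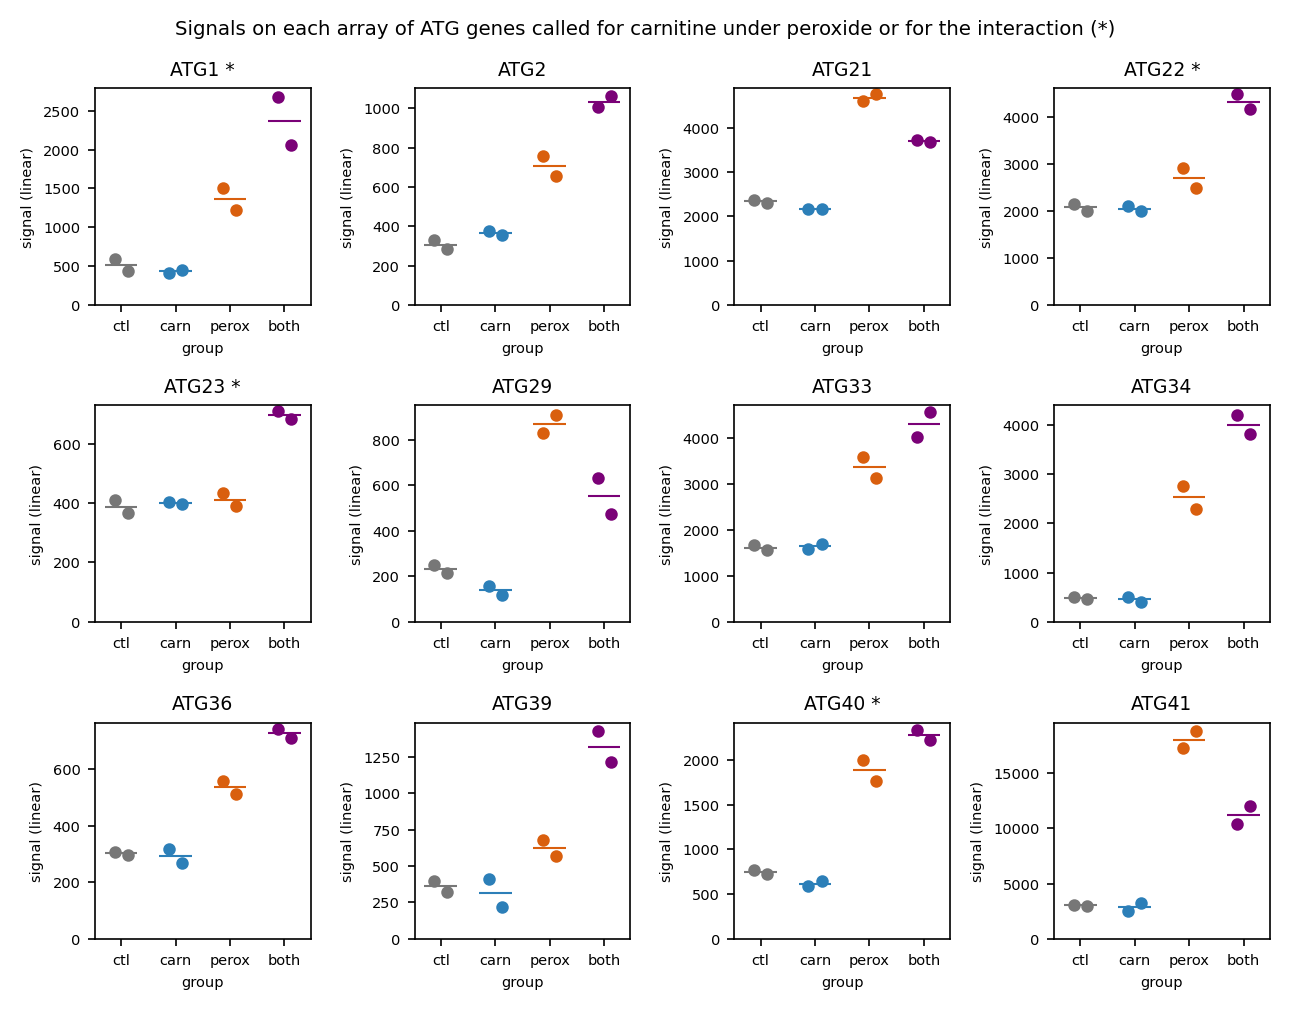
Linear signal on each array (points) and group mean (lines) for the 12 ATG genes called for carnitine under peroxide or for the interaction (asterisk), in the order control, carnitine, peroxide and both agents, each panel on its own axis from 0. In 9 panels the arrays with both agents are the highest, and in those of ATG21, ATG29 and ATG41 the arrays with peroxide alone are.

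The other genes of the pathway are given on the deposited scale, and the spike scalings were not applied to them. Among 18 genes of upstream control, 7 rose and 7 fell with peroxide alone, with a median change of 0.04. These shares, 38.9% each, lie near the 35.3% and 39.5% of all tested genes. TOR1, for a catalytic subunit of the TORC1 kinase that restrains autophagy, fell by 1.38 ± 0.089 (adjusted p = 6.29e-06), from a mean of 2068 to 795. LST8, for a subunit shared by both TOR complexes, rose by 1.28 ± 0.086. SCH9, for a kinase that TORC1 activates, fell by 0.82 ± 0.083, and GCN2, for the kinase that senses amino acid shortage, fell by 0.67 ± 0.072. With carnitine in both groups 7 rose and 5 fell (38.9% and 27.8%, against 35.8% and 39.1%). With carnitine alone 0 of the 18 were called, where 0.47% of all tested genes rose and 1.03% fell. In peroxide-treated cells carnitine raised 5 and lowered 1 (27.8% and 5.56%, against 18.8% and 16.7%). The 5 were SCH9 by 0.76 ± 0.083, TOR1 by 0.61 ± 0.089, RIM15, for a kinase of the starvation programme, by 0.58 ± 0.13, MSN4, for a stress transcription factor, by 0.56 ± 0.13, and TOR2 by 0.27 ± 0.078. SNF1, for the energy-sensing kinase, fell by 0.34 ± 0.069. The interaction was called for SCH9, 0.49 ± 0.12 (adjusted p = 0.0389), and TOR1, 0.47 ± 0.13 (adjusted p = 0.0499). These 2 are 11.1% of the list, against 7.72% of all tested genes called in this direction.

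Of 14 genes for trafficking and fusion that autophagy shares with other routes, 9 rose and 3 fell with peroxide alone (64.3% and 21.4%, against 35.3% and 39.5% of all tested genes). In carnitine-fed cells 8 rose and 2 fell (57.1% and 14.3%, against 35.8% and 39.1%). SNX4, for the sorting nexin that pairs with Atg20, rose by 1.59 ± 0.085 and 2.04 ± 0.085. VPS30 and VPS34, for a subunit and the catalytic chain of the phosphatidylinositol 3-kinase, rose by 1.11 ± 0.10 and 0.77 ± 0.078 without carnitine. VTI1, for a vacuolar fusion SNARE, rose by 1.18 ± 0.087. In peroxide-treated cells carnitine raised YKT6 and YPT1, by 0.37 ± 0.071 and 0.199 ± 0.040, and lowered 5, VAM7, CCZ1, VPS30, VTI1 and VPS34 (14.3% and 35.7% of the list, against 18.8% and 16.7%). These fell by 0.55 ± 0.13, 0.54 ± 0.12, 0.35 ± 0.10, 0.30 ± 0.087 and 0.28 ± 0.078 in that order. The interaction was called for CCZ1, for part of the exchange factor of Ypt7, at -0.703 ± 0.16 (adjusted p = 0.0366). It was also called for YKT6, a SNARE, at 0.400 ± 0.10 (adjusted p = 0.0437). Each is 7.14% of the list, against 5.11% of all tested genes called lower and 7.72% called higher. With carnitine alone 0 of the 14 were called, where 0.47% of all tested genes rose and 1.03% fell.

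Vacuolar enzymes and autophagic cargo rose with peroxide in 8 of 9 cases, without and with carnitine, and 0 fell, where 35.3% and 35.8% of all tested genes rose. APE1, for the aminopeptidase that is the main cargo of the cytoplasm-to-vacuole route, rose by 2.65 ± 0.068, from a control mean of 5620.0 to 35268 with peroxide. In carnitine-fed cells it rose by 2.801 ± 0.068, from a carnitine mean of 5774 to 40311 with both. AMS1, for the mannosidase that Atg19 and Atg34 carry, rose by 2.22 ± 0.15 and 2.58 ± 0.15. PRB1, for a vacuolar protease, rose by 1.22 ± 0.13 and 1.89 ± 0.13, and LAP3, for a cysteine aminopeptidase, by 0.703 ± 0.062 and 0.99 ± 0.062. CPS1, for a vacuolar carboxypeptidase, had -0.34 ± 0.14 and -0.301 ± 0.14 and was not called. Under peroxide, carnitine raised 5 of the 9 and lowered 0, where 18.8% of all tested genes rose and 16.7% fell: AMS1 by 0.92 ± 0.15, PRB1 by 0.701 ± 0.13, PEP4, for the master protease of the vacuole, by 0.31 ± 0.054, PRC1 by 0.26 ± 0.054 and LAP3 by 0.21 ± 0.062. The interaction was called for PEP4, at 0.36 ± 0.076 (adjusted p = 0.0311), which is 11.1% of the list, against 7.72% of all tested genes called higher. With carnitine alone 0 of the 9 were called, where 0.47% of all tested genes rose and 1.03% fell.

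**Figure D5:**
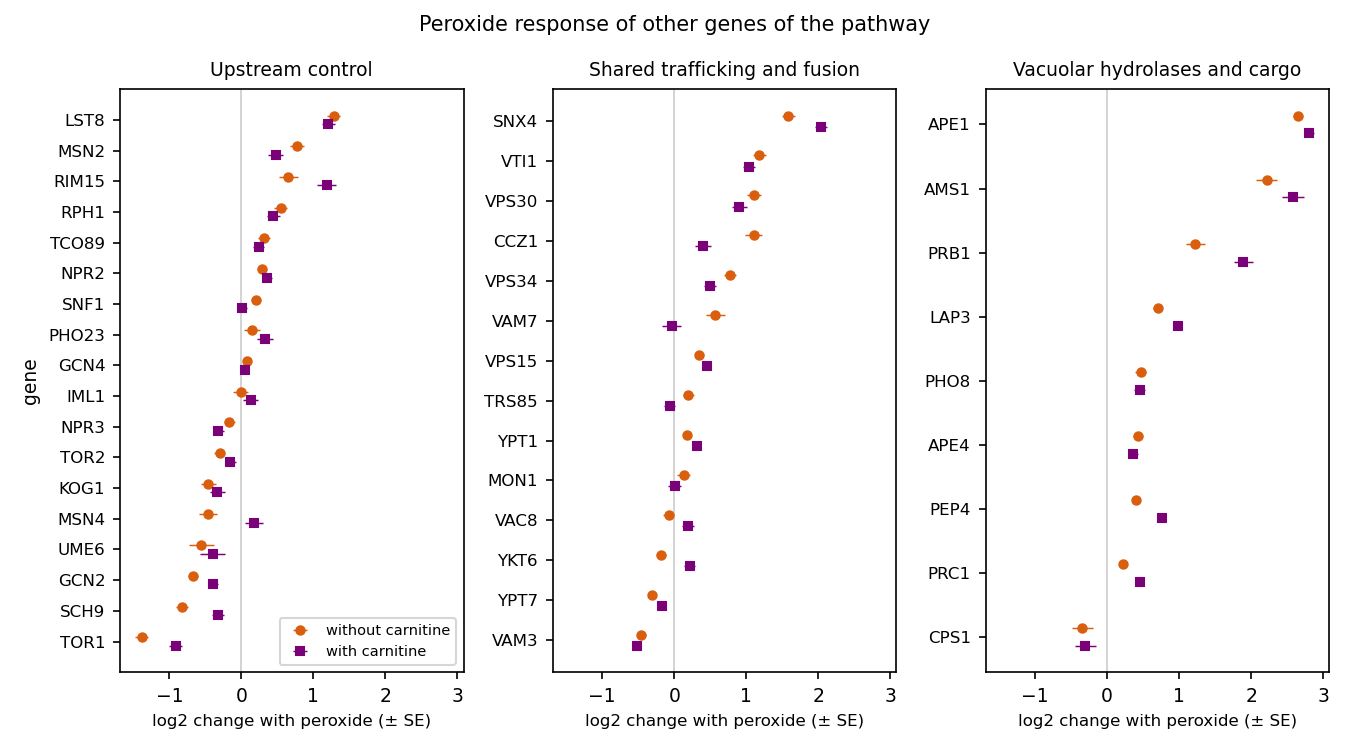
Log2 change with peroxide, ± SE, without carnitine (orange circles) and with carnitine in both groups (purple squares), for the 18 genes of upstream control, 14 of shared trafficking and 9 of vacuolar enzymes and cargo. The first panel spreads to both sides of 0 from LST8 to TOR1, and in the last panel 8 of 9 genes lie to the right of 0.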

How the data were processed

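The deposited values were linear signal intensities per probe set that the authors had already scaled. Per the submitters' processing notes the software was GCOS. For its version, the way probes were summarised, any background step and the scaling target, the sources used here give nothing. Probe sets were named through the platform annotation and a RefSeq gene table. The model of log2 intensities used R 4.3.3 and limma 3.58.1 (group means over all 8 arrays, variance trend), with Benjamini-Hochberg adjustment within each of 5 comparisons and a threshold of 0.05. Genes whose mean lay below 4.14, the 95th percentile of 1746 fission yeast probe sets, were left out (125 of 5449). The labels call the 2 arrays of a group biological replicates. Signals on every array are given for members called in a carnitine comparison or the interaction, or called at 2-fold or more with peroxide, and the others by means and changes. From each other pathway list, up to 4 genes by the size of the moderated t with peroxide, and those called in a carnitine comparison or the interaction, are named. CPS1 was named after its values were seen, as the gene of its list that did not pass. The members and lists were chosen with earlier results of these data known. Changes to scaling, filter, offset, variance model, block, threshold, probe sets and arrays gave 22 alternative settings. The fit was tested on simulated data. Promoter and protein sequences were not used here.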

Additional observations from a re-analysis of the deposited data

Results flagged for a closer look

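A test of the difference itself found that the peroxide response of 4 ATG genes was larger in carnitine-fed cells than in cells without carnitine. The 4 are 11.8% of the 34 members, near the 7.72% of all tested genes called in this direction. The difference between the 2 log2 changes was 1.02 ± 0.27 (SE) for ATG1, 0.70 ± 0.14 for ATG22, 0.71 ± 0.16 for ATG23 and 0.56 ± 0.15 for ATG40. The limma adjusted p-values were 0.0475, 0.0269, 0.0335 and 0.0477 in that order. Each call ended when any 1 of 7 arrays was left out, peroxide replicate 1 being the exception. With 2 arrays a group, arrays standing apart within a group were not looked for.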

How the results depend on the processing

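Calls were followed gene by gene over 17 or 18 alternatives, and over 16 or 17 for the interaction. For peroxide without carnitine, 16 of 28 member calls held under all of these, and with carnitine 26 of 30. For carnitine under peroxide 2 of 11 (ATG22 and ATG23) held, and for the interaction 0 of 4. The 2-fold minimum was not among these alternatives, and under it neither ATG22 nor ATG23 was called for carnitine under peroxide. The filter at the 40th percentile counted only for members it kept. Carnitine alone called no member under any of the 22 settings, although the sign of its median turned under hybridisation scaling (-0.09 to 0.07). For peroxide alone (27 higher, 1 lower, median 0.88), poly-A spike scaling gave 16 higher, 4 lower and a median of 0.29, hybridisation spike scaling 0 lower and 1.35, the filter at the 40th percentile, which removed 25 of the 34 members, 8 higher, and a 2-fold minimum 15 and 0. With carnitine (29 and 1, median 1.196), the lower count was 2 under quantile normalization, poly-A scaling or an adjusted p below 0.1, and hybridisation scaling gave 0 lower and a median of 1.56. The filter gave 8 higher, and a 2-fold minimum 18 and 0. For carnitine under peroxide (8 and 3), poly-A scaling gave 27 and 0 with a median of 0.70, the filter 2 higher, a 2-fold minimum 1 and 0, the fit of only those arrays 5 lower and the looser threshold 7 lower. The interaction (4 and 0) had 23 higher and a median of 0.76 under poly-A scaling. It had 2 higher under hybridisation scaling, no filter or the offset of 50, 2 and 1 under the filter, 1 higher at a 2-fold minimum, and 8 and 1 under the looser threshold. Leaving out 1 array gave 1 to 2 lower with peroxide in carnitine-fed cells, 2 to 8 higher and 0 to 4 lower for carnitine under peroxide, and 0 to 5 higher for the interaction. Among changes called on the deposited or the poly-A scale, signs turned for ATG13 (-0.000652), ATG17 (-0.53), ATG22 (-0.21) and ATG23 (-0.51) with peroxide alone. With uncalled changes counted too, negative members went from 2 on the deposited scale to 9 under poly-A scaling. For carnitine under peroxide, signs of such called changes turned in ATG3 (0.57), ATG7 (0.62), ATG12 (0.49), ATG13 (0.67), ATG17 (0.60) and ATG18 (0.60). They also turned in ATG21 (0.36), ATG26 (0.69), ATG27 (0.66), ATG29 (0.0326), ATG38 (0.46) and ATG41 (0.0109), and for the interaction in ATG32 (0.60). With uncalled changes counted, negative members went from 17 to 0 for carnitine under peroxide and from 11 to 1 for the interaction. Among called peroxide changes, hybridisation scaling turned ATG27, to 0.15 without carnitine and 0.0594 with it. With uncalled changes counted, negative members went from 2 to 0 without carnitine and from 2 to 1 with it. Poly-A replicates of a group differed by up to 0.223 and hybridisation ones by up to 0.222, and the cause of these shifts was not tested. Same-numbered arrays are not paired by the labels, and their deviations correlated at -0.112 to 0.132. A replicate block gave 28 and 1, 29 and 1, 8 and 4, and, for the interaction, 7 and 1. ATG15 without peroxide and ATG16 are dim, so their changes depend on the offset.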
